A study of Mus musculus with 6 samples.

Results

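Dynein motor genes and the genes of cilium assembly and intraflagellar transport were followed in thymic tuft cells cultured with or without recombinant interleukin 13 (rIL-13). The set was taken by gene symbol, through the families Dnaaf, Dnah, Dnai, Dnal, Dync, Dynl, Dctn, Ift, Bbs, Cfap, Rsph, Tekt, Tctn and Cep together with Tmem231, Tmem216 and Arl13b. It holds 62 of the 9088 listed genes. The set was chosen because 1 of its genes, Dnaaf3, was already known from these same libraries to be higher with rIL-13. The values of Dnaaf3 are therefore given as a description. Where it is counted among all genes fitted, its own outcome is not used as evidence. The other 61 genes entered by symbol alone.

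The cells came from young male mice of wild-type genotype. Thymic tuft cells were sorted, centrifuged to aggregate, and kept in culture for 12 h and for a further 24 h after a change of medium. They were then exposed for 24 h to 20 ng/mL rIL-13 or to the PBS vehicle, with 3 libraries in each group. Transcripts were counted in bulk by MARS-seq, which tags the 3' end of polyadenylated RNA with unique molecular identifiers (UMIs), so that a gene's count does not grow with its length. No label ties a replicate to an animal or a culture of its own, so the spread that p-values measure here may be technical.

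Dyneins are motors that walk toward the minus ends of microtubules. Cytoplasmic dynein 1, bound to its activator dynactin, hauls vesicles, organelles and the mitotic spindle in nearly all cells, while cytoplasmic dynein 2 carries intraflagellar transport (IFT) trains back from the tip of a cilium. Axonemal dyneins make motile cilia beat, and their arms are assembled in the cytoplasm by factors of the DNAAF group before they are carried into the cilium. The thymic medulla holds epithelial cells that imitate peripheral cell types, tuft cells and ciliated cells among them.

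The listed genes held 394513 to 489919 UMIs in the vehicle libraries and 248028 to 295614 in the rIL-13 libraries, so low genes were counted less precisely with rIL-13. All 19 defining tuft cell markers that were looked for, Pou2f3, Trpm5 and Il25 included, are among the listed genes. Together they held 0.658% to 0.828% of UMIs with vehicle and 0.652% to 1.22% with rIL-13. Of 9 defining markers of motile ciliated cells, 1 is listed, the tubulin-binding protein gene Tppp3. Foxj1, Sntn, Spag6l, Hydin, Pifo, Ccdc39, Ccdc153 and Deup1 are not among the listed genes and are not analysed here. Each listed gene has at least 6 UMIs in some library.

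By UMIs the set was mostly the machinery of cytoplasmic transport, counted here with Dync2li1 of the ciliary dynein 2. Genes of ciliary beating are only sparsely listed. The 13 genes of cytoplasmic dynein chains, dynein light chains and dynactin held 57.4 ± 2.07% of the UMIs of the set without Dnaaf3 in the vehicle libraries and 59.2 ± 2.93% with rIL-13 (SD, n = 3 each). Of 15 annotated Dnah genes, the heavy chains of axonemal dynein, 0 are among the listed genes, against 2 of 8 Rsph genes, 1 of 5 Tekt genes and 6 of 31 Cfap genes. By contrast 12 of 14 annotated Ift genes and 5 of 6 Dctn genes are listed. Counts of annotated genes are protein-coding symbols of GENCODE M21, which does not hold the symbol of a further listed gene, Cfap410.

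The promoters of the 3 listed assembly factor genes are shown because Dnaaf3 differs from its companions in the counts that follow. Each window runs from 250 bases before to 50 bases after the RefSeq start, on build GRCm38.p6, 5' to 3' on the gene's own strand: chr7:4532416-4532715 on the minus strand for Dnaaf3, chr12:69198380-69198679 on the minus strand for Dnaaf2 and chr5:139149985-139150284 on the plus strand for Dnaaf5. Capitals mark matches to the motifs named below.
Dnaaf3: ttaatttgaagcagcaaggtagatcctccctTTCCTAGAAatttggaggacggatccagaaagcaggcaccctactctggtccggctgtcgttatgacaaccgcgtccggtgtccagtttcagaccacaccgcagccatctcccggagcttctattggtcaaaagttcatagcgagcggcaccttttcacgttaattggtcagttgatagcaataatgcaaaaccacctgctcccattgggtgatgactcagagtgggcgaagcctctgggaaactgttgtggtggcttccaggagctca
Dnaaf2: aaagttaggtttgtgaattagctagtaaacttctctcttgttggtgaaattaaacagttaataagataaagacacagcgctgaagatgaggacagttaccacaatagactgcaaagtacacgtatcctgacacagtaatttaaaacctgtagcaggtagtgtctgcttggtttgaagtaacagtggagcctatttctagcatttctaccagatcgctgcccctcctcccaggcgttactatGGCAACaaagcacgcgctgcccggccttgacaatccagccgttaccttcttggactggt
Dnaaf5: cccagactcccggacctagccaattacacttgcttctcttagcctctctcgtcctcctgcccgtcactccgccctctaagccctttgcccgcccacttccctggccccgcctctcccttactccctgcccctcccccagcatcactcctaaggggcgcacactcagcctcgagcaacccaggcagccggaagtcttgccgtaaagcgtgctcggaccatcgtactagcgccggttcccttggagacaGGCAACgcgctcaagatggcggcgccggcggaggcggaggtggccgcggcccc

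The motifs searched, on both strands, were the STAT6 type TTCNNNNGAA, the STAT type TTCNNNGAA, the forkhead type TGTTTAC and GTTGCC, a core of the X-box bound by RFX factors, the regulators of ciliary genes. The Dnaaf3 window holds 1 STAT type match, at positions -219 to -211 from the start. It reads on both strands, as every match to this motif does. None of the 3 windows holds a STAT6 type or a forkhead match. The Dnaaf2 and Dnaaf5 windows hold an X-box core each, at -9 to -4 and at -3 to 3, on the strand opposite to the gene. RefSeq windows were found for 49 of the 62 genes, 56 windows in all. An X-box core was in 28.6% of these 56 windows (14 genes), against 12.5% of all 32851 windows. The STAT type was in 5.36% of the windows of the set (Dnaaf3, Ift43 and Ift27) against 8.30% of all, the STAT6 type in 3.57% against 6.95%, and the forkhead type in 3.57% against 3.65%. These matches describe letters, not binding.

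Among the assembly factors, Dnaaf3 was far higher with rIL-13 and its 2 listed companions were not called. The UMIs of Dnaaf3, in the order of the replicate numbers, were 3, 3 and 4 for vehicle, against 29, 47 and 31 for rIL-13. As CPM, which are UMIs scaled to library size with TMM factors, this was 7.53 ± 0.870 CPM with vehicle and 127 ± 29.4 CPM with rIL-13 (SD, n = 3 each). Every rIL-13 library lay above every vehicle library, and the log2 fold change was 4.02 ± 0.41 (SE). By mean CPM Dnaaf3 stood at rank 57 of the 62 genes with vehicle and at rank 9 with rIL-13.

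Dnaaf2, which takes part with chaperones in the folding of dynein heavy chains, had 5, 6 and 14 UMIs in vehicle, against 6, 3 and 4 under rIL-13, and its log2 fold change in a fit without a filter on low counts was -0.26 ± 0.63 (SE; edgeR adjusted p = 0.990). Dnaaf5, a HEAT repeat factor of the same pathway, had 5, 8 and 4 UMIs in vehicle, against 6, 7 and 6 under rIL-13 (0.79 ± 0.60, edgeR adjusted p = 0.943 in the same fit). Its CPM of 22.7 ± 1.72 with rIL-13 lay above all vehicle libraries, which averaged 12.9 ± 4.64, but these differences rest on 4 to 8 UMIs a library. The 95% intervals were -1.54 to 1.02 for Dnaaf2 and -0.44 to 2.03 for Dnaaf5 on the log2 scale, so both allow a 2-fold rise.

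**Figure D1:**
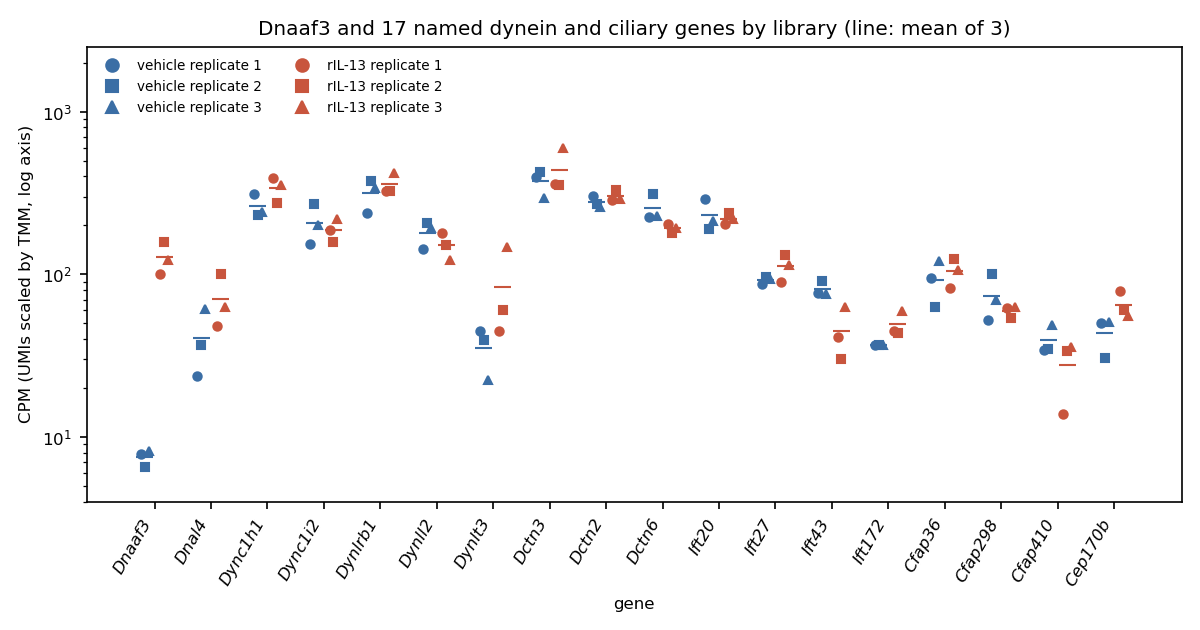
CPM on a log axis for Dnaaf3 and the 17 other genes named by level or p, by library, with vehicle in blue, rIL-13 in red, a symbol for each replicate number and a line at the mean of 3 libraries. Dnaaf3 moves from 7.53 to 127 CPM, while the other genes have red and blue points close together or overlapping, with Dynlt3 and Ift43 the widest apart.

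Dnaaf3 lies on chromosome 7 in a row of genes on the minus strand, and its nearest listed neighbours on either side were also higher with rIL-13 in CPM. Tnni3, the cardiac troponin I gene downstream, had 5, 2 and 1 UMIs in vehicle, against 7, 11 and 14 under rIL-13, and it did not pass in the fit without a filter (2.57 ± 0.65, edgeR adjusted p = 0.227). Syt5, a synaptotagmin gene that ends 7311 bases upstream of the start of Dnaaf3, had 1, 1 and 3 UMIs and 3, 25 and 23. It passed in the fit without a filter (3.90 ± 0.72, edgeR adjusted p = 0.0273), where 0.077% of all 9088 genes passed, but it fell under the filter of the main fit. Its rIL-13 replicate 1 has as few UMIs as vehicle replicate 3. Tnni3 and Syt5 each reached the 6 UMIs that every listed gene has in some library only with rIL-13. Their listing thus depends on the group where they are high, and these fits are not evidence of a rise. Ppp1r12c, farther downstream, had 32, 32 and 33 UMIs in vehicle, against 37, 18 and 20 under rIL-13 (0.28 ± 0.33, edgeR adjusted p = 0.941). Tnnt1, with 6, 0 and 1 against 2, 0 and 1 UMIs, and Ptprh, with 4, 3 and 5 against 0, 0 and 8, did not separate the groups. A wider list of this locus has 9 listed genes, which add Ppp6r1, Tmem238 and Rpl28. The 5 tested, Dnaaf3 and Ppp1r12c included, all had estimates above 0 (median 0.28), beside 49.9% of all genes tested. The sign of Dnaaf3 follows from the choice of the set and adds nothing to this count.

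The gene bodies of Dnaaf3 and Tnni3 overlap, and how reads in the overlap were assigned is not given in the sources used here. In GENCODE M21 Dnaaf3 has 12 exons, and the last, where 3' end tags are made, spans 927 bases at 4522933 to 4523859. No annotated exon of Tnni3 or of the antisense gene Gm15873 overlaps this last exon. A Tnni3 transcript shares 86 bases with exon 10 of Dnaaf3. With the UMIs of Dnaaf3 and Tnni3 summed as 1 gene the log2 fold change was 3.57.

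Markers of other cell types were read in the same libraries. Chga and Chgb, granule proteins and the 2 listed of 6 defining markers of neuroendocrine-like cells, had 0, 4 and 2 UMIs together in vehicle, against 32, 5 and 19 under rIL-13. Chga passed in the fit without a filter (4.03 ± 0.72, edgeR adjusted p = 0.0112), and Chgb did not (2.86 ± 1.56, edgeR adjusted p = 0.896). Both reached the 6 UMIs that every listed gene has in some library only with rIL-13. Their listing thus depends on the group where they are high, and neither estimate is evidence of a rise. Insm1, Neurod1, Scg2 and Snap25 are not among the listed genes. A longer list of 14 such genes has 5 listed, which add Syt5 and the secretory granule genes Scg5 and Cpe, and together they had 84, 105 and 67 UMIs against 54, 62 and 81. Scg5 had 6, 8 and 7 UMIs against 4, 3 and 6. Cpe, the 1 of them in the main fit, had 77, 92 and 55 UMIs against 15, 29 and 33 and did not pass (-0.88 ± 0.34, edgeR adjusted p = 0.802). The genes of this list thus did not share a direction. Muscle-like markers (4 of 6 listed) held 0.0291%, 0.0743% and 0.213% of UMIs in vehicle, against 0.0203%, 0.0766% and 0.00887% under rIL-13. A longer list had 11 of 16 genes listed and held 0.0352%, 0.0876% and 0.422% against 0.0284%, 0.103% and 0.0109%. All 3 tested were below 0 (median -1.70), and 1 passed as the only gene called lower in the main fit (0.0195% of all genes). A longer list of tuft cell markers had 21 of 29 tested, with 17 estimates above 0, beside 49.9% of all genes tested. Of these 21, 1 passed as higher, beside 0.0389%. Fibroblast markers (5 of 5 listed) held 0.130% to 0.207% with vehicle and 0.0935% to 0.201% with rIL-13. Tppp3 of the ciliated cell markers had 45, 58 and 63 UMIs in vehicle, against 29, 61 and 72 under rIL-13 (0.65 ± 0.31, edgeR adjusted p = 0.860). The part of these markers in the Dnaaf3 values was not tested, and in bulk RNA more cells of a type and more RNA per cell cannot be told apart.

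**Figure D2:**
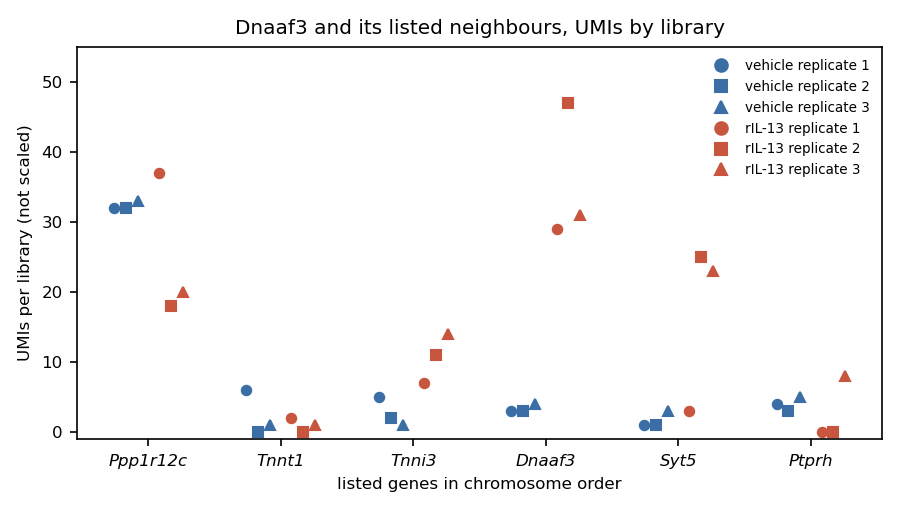
UMIs per library, not scaled to depth, for Dnaaf3 and some of its listed neighbours in chromosome order, with vehicle in blue and rIL-13 in red. Ppp6r1, Tmem238 and Rpl28 of the same locus are listed but not shown. Dnaaf3 runs from 3 to 4 UMIs in blue and from 29 to 47 in red, Tnni3 and Syt5 have their highest points in red, and Ppp1r12c has both colours mixed.

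None of the other genes of the set passed the threshold with rIL-13, and few of all genes did. Of 26 genes tested besides Dnaaf3, 0 were higher and 0 were lower by edgeR's quasi-likelihood test, with Benjamini-Hochberg adjustment over all 5135 genes and a threshold of 0.05. Of all genes, 0.0584% passed, 0.0389% higher, Dnaaf3 included, and 0.0195% lower. The 0 of 26 is near this small share, so it does not set the 26 genes apart from other genes. The smallest adjusted p among the 26 was 0.788. At an unadjusted p under 0.05 edgeR gave 2 of the 26, Dynlt3 and Ift43 in opposite directions, beside 5.47% of all genes tested. DESeq2 gave 0 of the 61 other listed genes after adjustment, beside 0.0661% of all genes, and 1 before it, beside 2.72%. With limma voom 2 of the 26 had an unadjusted p under 0.05, beside 5.22% of all genes. After adjustment limma voom called 0.0% of all genes, Dnaaf3 included, so its 0 of 26 tells nothing about the set. In the authors' deposited table, an adjusted p under 0.05 is given to 0 of the 61.

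The log2 fold changes of these 26 genes ran from -0.86 to 1.23, with 14 above 0 and 12 below. Their median was 0.14, against -0.00099 over all genes tested, of which 49.9% were above 0. It was -0.011 without a filter on low counts, which brings in all 61 genes, and -0.0011 without rIL-13 replicate 3. By library, the median deviation of the 26 genes from the vehicle mean on the log2 CPM scale ran -0.06, 0.08 and -0.01 for vehicle, against -0.08, 0.08 and 0.25 for rIL-13. Only rIL-13 replicate 3 thus lay outside the range of the vehicle libraries on the high side, and rIL-13 replicate 1 lay just below it. In the same order, the tuft cell markers held 0.658%, 0.828% and 0.776% of UMIs in vehicle, against 0.652%, 1.14% and 1.22% under rIL-13. Whether these shares bear on the medians was not tested.

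The intervals set the size of change that the data allow. For 18 of the 26 genes the whole 95% interval lay below a 2-fold rise, or 69.2%, beside 72.4% of all genes tested. For 21 of the 26 it lay above a 2-fold fall, beside 73.0% of all genes tested, and for 13 it lay within 2-fold in both directions, beside 48.5%. The 8 genes whose intervals reach a 2-fold rise were Dnal4, Dynlt3, Dctn1, Ift22, Ift172, Cfap20, Tekt5 and Cep170b. The highest upper bound among all 26 was that of Dynlt3, at 2.17 on the log2 scale. The 3 rIL-13 libraries all lay to one side of the vehicle libraries for 5 of the 26 genes, or 19.2%, beside 11.7% of all genes tested. These were Dynlt3, Ift172 and Cep170b on the higher side, where 5.76% of all genes lay, and Ift43 and Dctn6 on the lower side, where 5.96% lay, and none of these 5 passed.

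**Figure D3:**
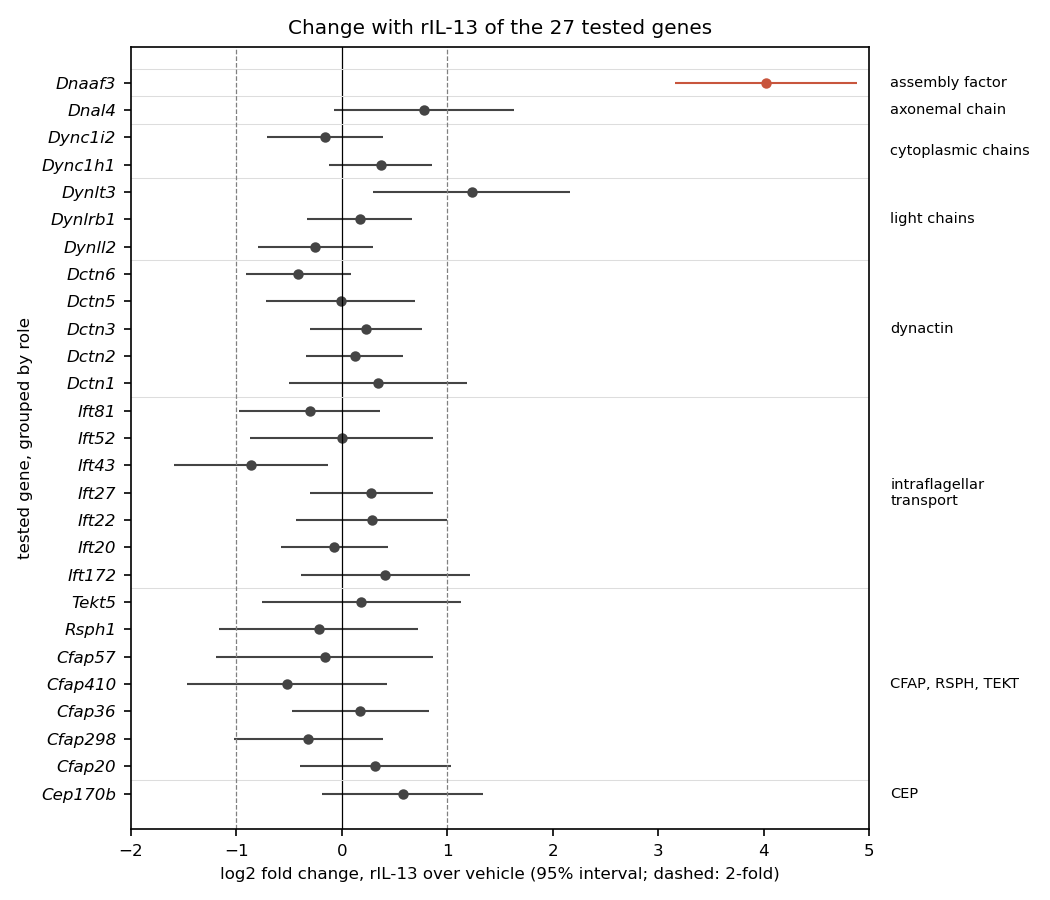
Log2 fold change of rIL-13 over vehicle for the 27 tested genes, grouped by role, with 95% intervals and dashed lines at a 2-fold change. Dnaaf3, for which the set was chosen, is at 4.02, and the other 26 estimates lie between -0.86 and 1.23. Of these 26, the interval of Dynlt3 reaches farthest to the right, at 2.17.

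Of the axonemal dynein chains, the 2 listed genes were the light chain genes Dnal4 and Dnal1. Dnal4 had 23.7, 37.0 and 61.1 CPM in vehicle, against 48.3, 101 and 63.3 CPM under rIL-13, so that 2 of the rIL-13 libraries were above all vehicle libraries and the groups overlapped. The estimate, 0.78 ± 0.41 on the log2 scale, did not pass (edgeR adjusted p = 0.860). Dnal1 had 2, 8 and 5 UMIs in vehicle, against 1, 0 and 1 under rIL-13, with an estimate of -2.06 ± 1.29 in the fit without a filter (edgeR adjusted p = 0.896). The 2 light chains therefore had estimates of opposite sign, and neither passed.

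The cytoplasmic dynein chains Dync1h1 and Dync1i2 were among the most abundant genes of the set, and neither passed. Dync1h1, the heavy chain that holds the motor domain of dynein 1, was at 263 ± 44.0 CPM with vehicle and 339 ± 57.7 CPM with rIL-13, with overlapping groups (0.37 ± 0.23, edgeR adjusted p = 0.867). Dync1i2, an intermediate chain that links the motor to dynactin, was at 208 ± 58.9 and 187 ± 29.7 CPM (-0.16 ± 0.26, edgeR adjusted p = 0.963). The upper bound of the interval was 0.86 for Dync1h1 and 0.39 for Dync1i2.

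The light intermediate chains, which connect dynein to cargo adaptors, fell under the count filter. Dync1li1 had 3, 1 and 2 UMIs in vehicle, against 4, 6 and 5 under rIL-13, with all rIL-13 libraries higher (1.88 ± 0.89 in the fit without a filter, edgeR adjusted p = 0.896). Its close relative Dync1li2 had 12, 13 and 10 UMIs and 3, 8 and 12, at 0.05 ± 0.52. Dync2li1, the light intermediate chain of the ciliary dynein 2, had 7, 13 and 6 UMIs and 3, 2 and 2, at -1.21 ± 0.71 (edgeR adjusted p = 0.896), with all rIL-13 libraries lower in CPM. All of these are counts of 13 UMIs or fewer. Dync1li1 reached the 6 UMIs that every listed gene has in some library only with rIL-13, and Dync2li1 only with vehicle. The listing thus favours the directions seen for these 2 genes.

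Of the dynein light chains, Dynlt3 had the highest estimate among the 26 tested genes and did not pass. Dynlt3, a TCTEX1-type light chain, had 44.8, 39.2 and 22.4 CPM in vehicle, against 44.8, 60.6 and 146 CPM under rIL-13. The high value is that of rIL-13 replicate 3, while rIL-13 replicate 1 equals vehicle replicate 1 at the digits shown. The log2 fold change was 1.23 ± 0.44 (edgeR adjusted p = 0.788), and it was 0.59 without rIL-13 replicate 3 and 1.52 at most with another library left out. Dynlrb1, a roadblock-type light chain, was at 317 ± 72.1 and 358 ± 53.3 CPM (0.17 ± 0.24, edgeR adjusted p = 0.947). Dynll2, an LC8-type light chain shared with myosin V, was at 180 ± 33.8 and 151 ± 28.3 CPM (-0.25 ± 0.26, edgeR adjusted p = 0.932).

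Of 5 dynactin subunits, all tested, 3 had estimates above 0 and 2 below, and 0 passed. Dctn3, the p24 subunit of the shoulder, led the set with 373 ± 69.0 CPM with vehicle and 438 ± 142 CPM with rIL-13. Its rIL-13 libraries read 358, 354 and 601 CPM, so the higher mean comes from rIL-13 replicate 3 (0.23 ± 0.25, edgeR adjusted p = 0.937). Dctn2, the dynamitin subunit, was at 278 ± 22.7 and 302 ± 24.7 CPM (0.12 ± 0.22, edgeR adjusted p = 0.964). Dctn6, a subunit of the pointed end of the complex, read 226, 311 and 228 CPM in vehicle, against 203, 179 and 194 CPM under rIL-13. All 3 rIL-13 libraries were lower, and the log2 fold change of -0.41 ± 0.24 did not pass (edgeR adjusted p = 0.860). Dctn1, the p150 subunit that binds microtubules, and the pointed-end subunit Dctn5 were at 0.34 ± 0.40 and -0.01 ± 0.33.

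In the order of vehicle levels Dctn3, Dynlrb1, Dctn2, Dync1h1, Dctn6, Ift20, Dync1i2 and Dynll2 came first, at mean CPM from 373 to 180. Neighbours in this order differed by less than the larger of their 2 SDs. The step from Dynll2 to Cfap36, next at 92.7 CPM, was larger than either SD. With rIL-13 the same 8 genes filled the first 8 places, and Dnaaf3 followed them.

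IFT genes showed no common direction. Of 12 listed, 7 were tested, with 3 estimates above 0 and 4 below and a median of -0.0033. Ift20, the IFT-B subunit that also sits at the Golgi, was the most abundant, at 232 ± 53.8 CPM with vehicle and 220 ± 18.0 CPM with rIL-13 (-0.07 ± 0.24, edgeR adjusted p = 0.989). Ift27, a small GTPase of the same complex, was at 92.1 ± 4.65 and 112 ± 21.03 CPM (0.28 ± 0.28, edgeR adjusted p = 0.930).

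Ift43, a subunit of the IFT-A complex of retrograde transport, had 76.4, 91.4 and 75.4 CPM in vehicle, against 41.4, 30.3 and 63.3 CPM under rIL-13. All 3 rIL-13 libraries lay below all vehicle libraries. The estimate of -0.86 ± 0.35 did not pass (edgeR adjusted p = 0.802), and it ran from -1.17 to -0.64 as each library was left out. Ift172, an IFT-B subunit, had nearly equal vehicle values of 36.9, 37.0 and 36.7 CPM and rIL-13 values of 44.8, 43.8 and 59.4 CPM (0.41 ± 0.38, edgeR adjusted p = 0.926). The other tested subunits, Ift22, Ift52 and Ift81, were at 0.28 ± 0.34, -0.00 ± 0.41 and -0.31 ± 0.32. Ift74, Ift80, Ift88, Ift122 and Ift140 fell under the filter, with 0 to 16 UMIs a library.

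The CFAP, radial spoke and tektin genes, named for the axoneme, also stayed under the threshold, with 7 of 10 tested, 3 estimates above 0 and 4 below and a median of -0.16. Cfap36, an ARL3-binding protein, was at 92.7 ± 28.6 CPM with vehicle and 105 ± 21.05 CPM with rIL-13 (0.17 ± 0.31, edgeR adjusted p = 0.964). Cfap298, known in zebrafish and humans to be needed for outer dynein arms, was at 74.0 ± 24.1 and 59.8 ± 5.10 CPM (-0.32 ± 0.34, edgeR adjusted p = 0.932). Cfap410 was at 39.3 ± 8.29 and 27.7 ± 12.1 CPM (-0.52 ± 0.45, edgeR adjusted p = 0.926).

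Rsph1 and Rsph9 encode parts of the radial spoke head, which steers the beat of motile cilia. Rsph1 had 7, 31 and 30 UMIs in vehicle, against 11, 15 and 10 under rIL-13 (-0.22 ± 0.45, edgeR adjusted p = 0.972), and Rsph9 had 5, 12 and 14 and 4, 9 and 10 (0.25 ± 0.53 in the fit without a filter, edgeR adjusted p = 0.988). Tekt5, a tektin, a class of filament proteins inside axonemal microtubules, had 12, 15 and 15 UMIs and 5, 13 and 12 (0.18 ± 0.45, edgeR adjusted p = 0.977). All 3 genes were thus counted in every library of both groups, with no separation of the groups. Cfap45 had 8 UMIs in vehicle replicate 1, 1 in rIL-13 replicate 2 and 0 in the other libraries.

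**Figure D4:**
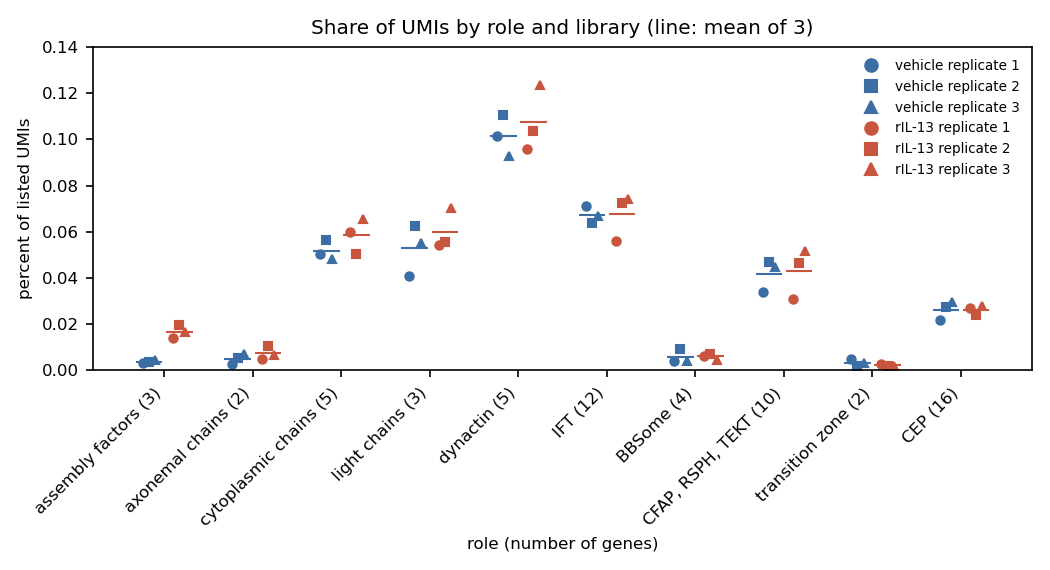
Percent of listed UMIs held by each role group in each library, with vehicle in blue, rIL-13 in red, a line at the mean of 3 libraries and the number of genes in parentheses. The assembly factors are at 0.00383 ± 0.000607% with vehicle and 0.0167 ± 0.00299% with rIL-13. They include Dnaaf3, for which the set was chosen and which gives 29 to 47 of their 41 to 57 UMIs in the rIL-13 libraries. Their separation follows from that choice and is not a result of its own. In the other role groups red and blue points overlap.

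The genes of the BBSome, a coat complex that moves membrane proteins in and out of cilia, were all under the filter. Bbs2 had 4, 7 and 8 UMIs in vehicle, against 7, 9 and 6 under rIL-13, with all rIL-13 libraries higher in CPM (0.86 ± 0.56 in the fit without a filter, edgeR adjusted p = 0.903). Bbs4, Bbs7 and Bbs9 had estimates of -0.56 ± 0.70, -1.35 ± 1.65 and -0.01 ± 0.60. Tctn2 and Tmem216 of the transition zone, the gate at the base of the cilium, were at -1.05 ± 0.75 and -0.03 ± 0.69.

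Centrosomal CEP genes were low, with 1 of 16 tested. Cep170b, related to a protein of the subdistal appendages of the mother centriole, read 50.04, 30.5 and 50.9 CPM in vehicle, against 79.3, 60.6 and 55.4 CPM under rIL-13 (0.58 ± 0.36, edgeR adjusted p = 0.868). The other 15 had 0 to 16 UMIs a library. Cep55, which acts at the midbody in cell division, had 6, 6 and 10 UMIs in vehicle, against 1, 2 and 5 under rIL-13 (-0.76 ± 0.74 in the fit without a filter). The proliferation markers Mki67, Top2a and Ccnb1 together held 0.0155%, 0.0131% and 0.0137% of UMIs in vehicle, against 0.00643%, 0.0122% and 0.0173% under rIL-13.

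Across all 35 genes under the filter, 14 estimates were above 0 and 21 below, with a median of -0.03 in the fit without a filter, and 1 had an unadjusted p under 0.05, Dync1li1, beside 5.38% of all listed genes. The groups did not overlap for 6 of the 35, or 17.1%, beside 10.3% of all genes under the filter. Of these 6, Dnaaf5, Dync1li1 and Bbs2 were higher with rIL-13, and Dnal1, Dync2li1 and Cep170 were lower. Dync1li1 reached the 6 UMIs needed to be listed only with rIL-13, and Dnal1, Dync2li1 and Cep170 only with vehicle. The p and the separation of these genes thus depend on how they came to be listed and are not evidence of a change. The upper bound stayed below a 2-fold rise for 9 of the 35, and the highest bound was 3.70 on the log2 scale, for Dync1li1. For the other 26 a 2-fold rise lay inside the interval and is not excluded at this depth.

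The share of UMIs held by the set without Dnaaf3 was 0.334%, 0.387% and 0.356% in vehicle, against 0.342%, 0.376% and 0.430% under rIL-13, or 0.359 ± 0.0269% and 0.383 ± 0.0443% (SD, n = 3 each). The difference of 0.0240 percentage points is smaller than either SD, and the groups overlapped. It ranged from 0.000325 to 0.0443 percentage points as each library was left out, lowest without rIL-13 replicate 3.

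Genes of the same machinery under other symbols were also counted. The lists share a few genes, and that of dynein arm assembly holds Cfap298 of the set. Over 8 lists of ciliary, centrosomal and dynein regulatory genes, no tested gene passed in either direction (edgeR, adjusted over all genes). In that fit 0.0584% of all genes passed. Transcription factors of ciliogenesis had 4 of 15 genes listed and 1 tested, E2f4, at -0.01 ± 0.29, and Rfx3 had 1, 7 and 1 UMIs with vehicle and 0 in each rIL-13 library. Other genes of dynein arm assembly and docking had 8 of 37 listed and 4 tested (median -0.22), and other motile cilium genes 9 of 47 listed and 5 tested (median 0.16). Kinesin-2 and further IFT genes had 3 tested (median 0.05), the transition zone and ciliary membrane 9 (median 0.18), BBSome partners 2 (median 0.37), dynein regulators 15 (median 0.03) and other centriole genes 7 (median 0.02). These medians stand beside -0.00099 over all genes tested. The Hedgehog pathway, which signals through primary cilia, had 7 of 13 genes listed and 1 tested, Smo, at -0.28 ± 0.44 (edgeR adjusted p = 0.962).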

How the data were processed

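Bulk MARS-seq libraries of cultured thymic tuft cells, 3 with rIL-13 and 3 with vehicle, were grouped by their titles. The submitters' processing notes name bcl2fastq, cutadapt, STAR 2.5.2b, HTSeq, DESeq2 and build mm10, without roles or order. The deposited table holds raw UMI counts per gene, which were used for every test. Its normalized signal, regularized log2 values and baseline means, deposited by the authors, were not used. From the comparison deposited by the authors, with log2 fold changes and p-values, only a count is quoted.

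Counts were tested with edgeR 4.0.16 in R 4.3.3 (TMM factors, default filter by group, quasi-likelihood F test with robust estimation, group as the single term, two-sided, Benjamini-Hochberg adjustment over 5135 genes). Standard errors and 95% intervals come from the F statistic. Genes under the filter were read from a second edgeR fit over all 9088 genes with any UMI. DESeq2 1.42.0, limma 3.58.1 voom, RLE factors, other filters, a replicate block and leaving out each library were alternatives. The main fit, DESeq2, limma voom, RLE factors and the replicate block were tried on simulated counts, and the fit without a filter was not. The simulation gave all genes the same spread and changed 200 of 5135 genes. In it the main fit called 27.7% of 2-fold and 95.7% of 4-fold changes, so most 2-fold changes were missed.

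The genes and lists were chosen with earlier results of these data known. Named genes were Dnaaf3, any gene past the threshold, the 2 most abundant and the 2 of smallest p among tested genes of each role, and each listed Dnaaf, Dnal, Rsph and Tekt gene with its UMIs. Other genes of the set named in the text were chosen after their values were seen. Figures used matplotlib 3.10.9. Annotation is GENCODE M21 on mm10 (61 of 62 symbols found), and promoter sequences are from RefSeq on GRCm38.p6. Same-numbered libraries deviated from their group means with correlations of -0.07, 0.07 and -0.22, so the numbers were not taken as pairs.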

Additional observations from a re-analysis of the deposited data

How the results depend on the processing

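No gene of the set tested besides Dnaaf3 passed under any alternative tried (0 higher and 0 lower in each). All 61 were tested only with DESeq2 and with no filter. With limma voom, RLE factors and the replicate number as a block 26 were tested. With a filter of at least 10 UMIs in 3 libraries 29 were tested, and 25 to 32 with each library left out. Over all genes the counts of higher and lower genes were 2 and 1, and they were 4 and 2 with DESeq2, 0 and 0 with limma voom, where Dnaaf3 did not pass either, 5 and 2 without a filter, and 8 and 5 with the replicate block. As each library was left out they ran from 1 to 20 higher and from 0 to 15 lower, at 20 and 9 without the first rIL-13 library, 8 and 15 without the third vehicle library, 2 and 0 without the second rIL-13 library, and 1 and 0 without each of the others in turn. The cause was not tested.

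The median log2 fold change of the set without Dnaaf3, 0.14, was -0.0086 with DESeq2 and -0.011 without a filter, both over 61 genes in place of 26, and -0.0011 to 0.17 as each library was left out. The count of genes with intervals below a 2-fold rise was 28 of 61 without a filter, and 16 to 21 as each library was left out. Dnaaf3 was at 4.01 with the replicate block, 3.88 with limma voom, 3.82 to 4.15 as each library was left out, and 3.57 with the UMIs of Tnni3 added. The share of UMIs differed by 0.000325 to 0.0443 percentage points as each library was left out. Of 204 alternative values of the 17 genes named by level or p, 0 passed and 199 kept their sign. The 5 others changed sign as libraries were left out, Dync1i2 over -0.34 to 0.069, Dynlrb1 over -0.0052 to 0.30, Dctn3 over -0.065 to 0.36, Ift20 over -0.20 to 0.12 and Cfap36 over -0.049 to 0.42. Depth limits the 35 genes under the filter, which have at most 16 UMIs in a library.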
